A study of Mus musculus with 9 samples.

Results

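The genes described here are 8 mouse genes of zinc buffering and zinc transport, chosen by symbol: the metallothioneins Mt1 and Mt2, the zinc-sensing transcription factor Mtf1, the exporters Slc30a1 and Slc30a9, and the importers Slc39a1, Slc39a10 and Slc39a14. They are 8 of 21939 genes in a count table of long-term haematopoietic stem cells (LT-HSCs) from bone marrow, and all 8 were among the 15127 genes with enough counts to be tested. The choice of genes used no measured value, but it was made with earlier results of these data known.

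The aged+Ri group held LT-HSCs of C57BL/6 mice over 80 weeks old that were exposed for 16 h to 100 µM Rhosin (Ri), an inhibitor of the small GTPase RhoA. The aged group held LT-HSCs of the same age without Rhosin, and the young group LT-HSCs of C57BL/6 mice aged 10 to 16 weeks without Rhosin. Cells of all groups were held for those 16 h in serum-containing buffer (10%) at 37 °C, under 3% oxygen and 5% CO2. Each group had 3 libraries, made from amplified full-length cDNA, and the labels do not say how many mice went into one, so p-values measure the spread between these libraries. The comparisons of aged+Ri with aged and of aged with young share the aged libraries.

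Metallothioneins are small cysteine-rich proteins that bind zinc and copper and buffer free metal in the cytosol. Free zinc is sensed by MTF1, which enters the nucleus and binds metal response elements in the promoters of Mt1, Mt2 and Slc30a1, so the mRNA of these genes is a common readout of zinc inside a cell. Proteins of the SLC30 family mostly carry zinc out of the cytosol, though that of Slc30a9 exports it from mitochondria. Those of the SLC39 family carry zinc into the cytosol. Metallothionein genes also respond to glucocorticoids and to oxidants, and blood-forming cells need zinc for the many zinc-finger factors that set their fate.

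The 3 classical MTF1 target genes among the 8 had the same order of mean levels in the groups, highest in aged cells. In each of the 3 the young mean was lowest, but young and aged+Ri libraries overlapped. How many of all genes have this order was not counted. The means of Mtf1 had this order too, and its promoter held no core of the metal response element. The groups of Mtf1 overlapped in all comparisons, so its order lies within the spread of the libraries. Whether such a core has a part in the order was not tested. The promoters of the 3 targets are shown because of their shared order. Each line gives the 250 bases before the start annotated by RefSeq (GRCm38.p6, plus strand). Capitals mark the core of the metal response element, TGCACNC or TGCGCNC read on either strand, and no matches overlap. The windows lie at chr8:94178839-94179088 for Mt1, chr8:94172368-94172617 for Mt2 and chr1:191906531-191906780 for Slc30a1.
Mt1: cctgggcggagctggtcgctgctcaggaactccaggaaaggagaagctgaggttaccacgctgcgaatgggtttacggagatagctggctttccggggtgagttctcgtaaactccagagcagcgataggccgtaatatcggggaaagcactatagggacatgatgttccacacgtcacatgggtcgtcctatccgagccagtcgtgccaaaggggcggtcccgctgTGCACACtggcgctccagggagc
Mt2: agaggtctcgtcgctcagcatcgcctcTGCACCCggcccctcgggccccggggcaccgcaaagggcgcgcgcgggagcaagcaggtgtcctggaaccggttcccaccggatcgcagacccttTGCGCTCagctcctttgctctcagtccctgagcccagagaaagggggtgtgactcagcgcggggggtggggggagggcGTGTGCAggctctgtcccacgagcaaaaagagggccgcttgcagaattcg
Slc30a1: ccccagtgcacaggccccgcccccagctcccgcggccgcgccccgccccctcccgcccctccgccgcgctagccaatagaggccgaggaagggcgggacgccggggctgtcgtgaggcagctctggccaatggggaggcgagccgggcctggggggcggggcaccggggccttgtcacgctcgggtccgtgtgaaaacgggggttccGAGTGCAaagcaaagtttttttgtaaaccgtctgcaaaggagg

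The Mt2 window held 3 cores, whose first bases lay at positions -223, -128 and -50 from the start. The Mt1 window held 1 core, at -23, and the Slc30a1 window 1 core, at -43. Of 32851 promoters of this length in the RefSeq table, 21.4% held at least 1 core and 1.26% at least 3. Extending the window to 50 bases after the start gave 3 cores for Mt1, 4 for Mt2 and 2 for Slc30a1, where 1.97% of all promoters held at least 3 and 0.517% at least 4. The table held promoters for 7 of the 8 genes, and those of Mtf1, Slc30a9, Slc39a1 and Slc39a10 had 0 cores in either window. The antioxidant response element core TGACNNNGC, searched on both strands and overlapping no metal response core, occurred once each before the starts of Mt2, Slc30a1 and Slc39a1, as in 10.2% of all promoters. A match is a description of these letters only, and another annotated start would place other bases in the window.

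The libraries held 34358101 to 72503142 deposited counts. Counts were detected for 15117 to 16333 genes in aged+Ri libraries, 15024 to 17987 in aged libraries and 20129 to 21213 in young libraries. All 10 LT-HSC markers examined, such as Procr, Hlf and Mecom, were detected, and their summed level was 1067 to 1666 CPM (counts relative to library size) in aged+Ri, 1487 to 1966 CPM in aged and 1092 to 2519 CPM in young libraries. The libraries labelled young 2 and young 3 held 2577 and 6400 counts of the Y-linked gene Ddx3y, against at most 1 in the other 7. A second Y-linked gene, Kdm5d, had 869 and 968 counts there, 58 in aged+Ri 1 and no more than 2 in any of the remaining 6. The labels do not give the sex of the mice. For the 8 genes and the called list genes, results against young cells are also given with young 1 as the sole young sample, where the lone library is assumed to vary like the other groups. Sequencing batch, as labelled, was spread over the groups: batch 1 held aged+Ri 1 and aged 1, batch 2 held aged+Ri 2, aged+Ri 3, aged 2 and young 2, and batch 3 held aged 3 and young 3. Young 1 is labelled with batches 1 and 3 and enters no within-batch value. In these bulk libraries, fewer cells of a type and less RNA per cell cannot be told apart.

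Mt1 was the most abundant of the 8 genes per length in the mean of every group. It is encoded at chr8:94179082-94180327 on the plus strand (GRCm38, GENCODE M21). Its level was 30.5, 89.0 and 62.1 CPM in aged+Ri 1, 2 and 3, against 363.2, 363.8 and 220.0 CPM in aged 1, 2 and 3, and 98.3, 33.3 and 6.33 CPM in young 1, 2 and 3. All CPM values are scaled by the trimmed mean of M-values (TMM). Every aged library lay above every aged+Ri and every young library, while the aged+Ri and young libraries overlapped. The aged mean of 315.7 ± 82.9 CPM compares with 60.5 ± 29.3 CPM in aged+Ri cells and 46.0 ± 47.3 CPM in young cells (SD, n = 3 each).

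In the edgeR quasi-likelihood test, the log2 difference of Mt1 for aged+Ri against aged cells was -2.38 ± 0.75 (SE), a ratio of 0.192. Its unadjusted p was 0.00772, the 287th smallest of 15127 genes, and its Benjamini-Hochberg adjusted p was 0.407, which does not pass the threshold of 0.05. For aged against young cells the log2 difference was 2.78 ± 0.76, a ratio of 6.87, with an edgeR unadjusted p of 0.00322 and an adjusted p of 0.182. Between aged+Ri and young cells it was 0.40 ± 0.71, with an edgeR adjusted p of 0.775. DESeq2 called Mt1 for aged against young cells, with an adjusted p of 0.0163, and not for aged+Ri against aged cells, where it was 0.0757. With young 1 as the sole young sample, edgeR called Mt1 for aged+Ri against aged cells (-2.39, adjusted p = 0.0147), and the difference of aged against young cells was 1.75, with an adjusted p of 0.140.

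Within batches, Mt1 was lower in aged+Ri than in aged libraries by value in both batches that held both groups, with differences in log2(CPM + 1) of -3.53 in batch 1 and -2.28 in batch 2. It was higher in aged than in young libraries, by 3.41 in batch 2 and 4.91 in batch 3. These values rest on 1 or 2 libraries a side and have no test. Leaving out 1 library at a time kept the fitted difference of aged+Ri from aged cells between -2.75 and -2.07 and that of aged from young cells between 2.28 and 3.89.

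The annotated neighbour Mt2 (chr8:94172664-94173568, plus strand) lies 5513 bp before Mt1 and codes for the other broadly used metallothionein. Mt2 had 10.4, 14.9 and 3.39 CPM in aged+Ri 1, 2 and 3, against 15.9, 25.1 and 7.71 CPM in aged 1, 2 and 3, and 4.27, 5.99 and 0 CPM in young 1, 2 and 3. Aged and young libraries did not overlap, and aged+Ri libraries overlapped both. Its log2 difference was -0.76 ± 1.29 for aged+Ri against aged cells and 2.25 ± 1.34 for aged against young cells, with edgeR adjusted p-values of 0.946 and 0.419. The means of 9.57 ± 5.79 CPM in aged+Ri and 3.42 ± 3.09 CPM in young cells (SD, n = 3 each) gave a log2 difference of 1.48 ± 1.31, with an edgeR adjusted p of 0.522. Without young 2 the differences of Mt2 were 3.01 for aged and 2.18 for aged+Ri against young cells, and with young 1 as the sole young sample they were 1.99 and 1.23. An antisense gene, Gm45774, overlaps 73.5% of the exon length of Mt2. Whether strand was used in counting is not given in the sources used here, so reads of the pair cannot be told apart.

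Mt1 and Mt2 together took 0.00386%, 0.0108% and 0.00603% of all counts in aged+Ri 1, 2 and 3. The share was 0.0383%, 0.0375% and 0.0251% in aged 1, 2 and 3, and 0.00944%, 0.00428% and 0.000646% in young 1, 2 and 3. The narrowest gap between the groups was that of aged+Ri 2, with a 95% Wilson interval of 0.0105% to 0.0111%, below aged 3, with 0.0247% to 0.0255%. These intervals cover counting error only. Counts of Mt1 were 2.92, 5.98 and 18.3 times those of Mt2 in aged+Ri 1, 2 and 3, and 22.8, 14.5 and 28.5 times in aged 1, 2 and 3. In young 1 and 2 the ratio was 23.0 and 5.55, and in young 3, with 222 counts of Mt1 and 0 of Mt2, it was at least 74 at a floor of 3 counts. The balance between the metallothioneins therefore varied several-fold within the aged+Ri and the young groups. The remaining mouse metallothioneins were low, with Mt3, of neurons, at most 1.30 CPM (75 counts, in aged+Ri 2) and Mt4, of stratified epithelium, at most 0.228 CPM in any library.

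**Figure D1:**
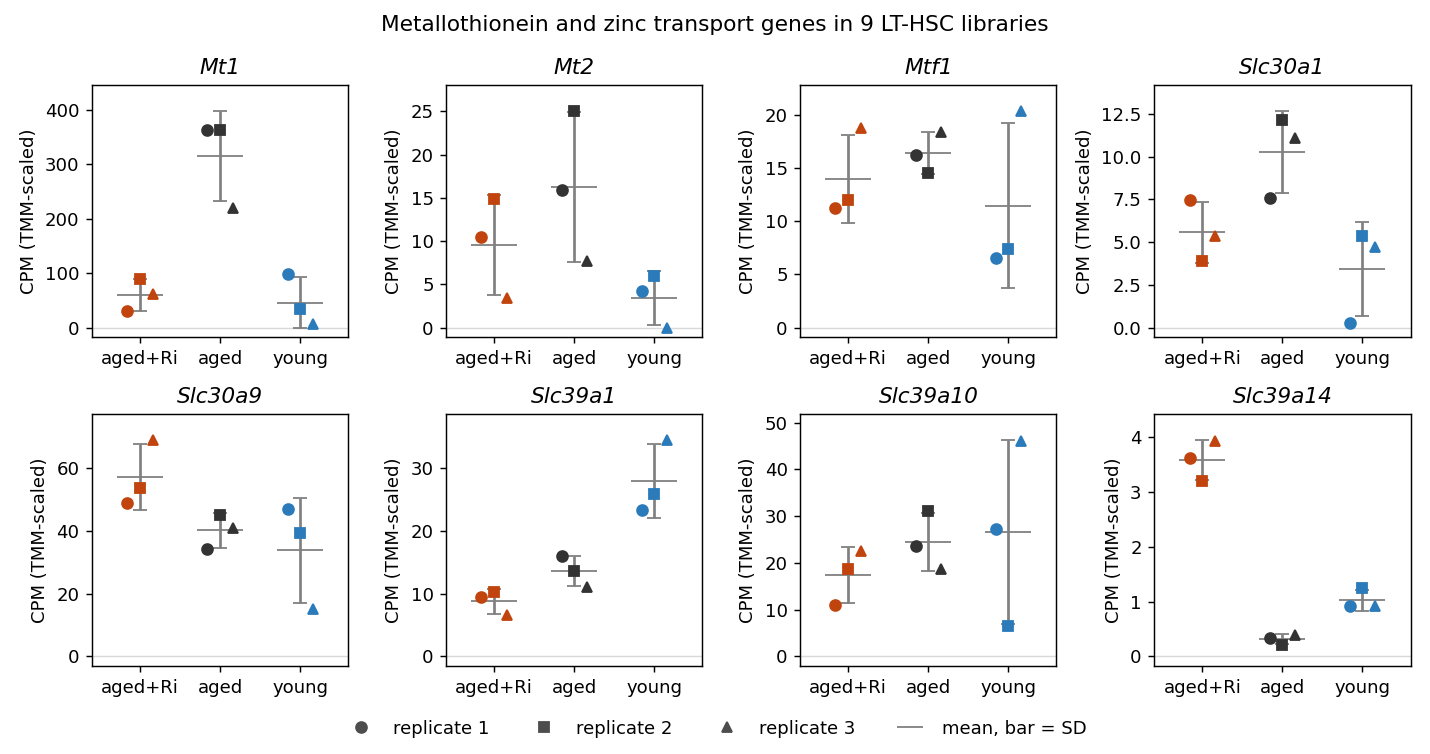
Level of each of the 8 genes (y axis, TMM-scaled CPM, a scale of its own for each gene) in aged+Ri, aged and young libraries (x axis); symbols are the libraries by replicate number, and the grey mark and bar are the mean and SD of 3 libraries. For Mt1 the aged libraries lie between 220.0 and 363.8 CPM, above all others, and for Slc39a14 the aged+Ri libraries lie between 3.20 and 3.93 CPM, above all others.

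Mtf1, the zinc sensor itself (chr4:124802104-124849800, plus strand), showed no separation of the groups. It had 11.2, 12.0 and 18.8 CPM in aged+Ri 1, 2 and 3, against 16.3, 14.6 and 18.5 CPM in aged 1, 2 and 3, and 6.59, 7.45 and 20.4 CPM in young 1, 2 and 3. All groups overlapped, and the highest library was young 3. The log2 difference of Mtf1 was -0.23 ± 0.68 for aged+Ri against aged cells, 0.52 ± 0.68 for aged against young cells and 0.29 ± 0.68 for aged+Ri against young cells, with edgeR adjusted p-values of 0.974, 0.752 and 0.835. With this spread, a difference of 1 SE corresponds to 0.68 on the log2 scale, so moderate differences were not detectable. Without young 3 the differences were 1.24 for aged and 1.01 for aged+Ri against young cells, and with young 1 as the sole young sample they were 1.38 and 1.144. Mtf1 shares 8.10% of its exon length with 1110065P20Rik on the other strand.

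Slc30a1 codes for ZnT1, the main zinc exporter of the plasma membrane (chr1:191906767-191913247, plus strand). Its level was 7.44, 3.90 and 5.37 CPM in aged+Ri 1, 2 and 3, against 7.57, 12.2 and 11.1 CPM in aged 1, 2 and 3, and 0.283, 5.33 and 4.70 CPM in young 1, 2 and 3. Aged libraries lay above all others, but the gap between aged+Ri 1 and aged 1 was only 7.44 against 7.57 CPM. The log2 difference was -0.88 ± 1.04 for aged+Ri against aged cells and 1.58 ± 1.06 for aged against young cells, with edgeR adjusted p-values of 0.899 and 0.474. Young 1, the lowest library, decided much of the second value, which was 0.99 without it and 5.23 with young 1 as the sole young sample. Between aged+Ri and young cells the groups overlapped and the log2 difference was 0.70 ± 1.04, with an edgeR adjusted p of 0.725, 0.09 without young 1 and 4.34 with young 1 alone. Within batch 1 the difference of aged+Ri from aged cells in log2(CPM + 1) was -0.02, and within batch 2 it was -1.24.

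Slc30a9 codes for ZnT9, which exports zinc from mitochondria (chr5:67306955-67358443, plus strand). It had 48.7, 53.6 and 69.0 CPM in aged+Ri 1, 2 and 3, against 34.3, 45.1 and 41.0 CPM in aged 1, 2 and 3, and 47.0, 39.4 and 15.1 CPM in young 1, 2 and 3. Aged+Ri libraries lay above all others, with young 1 close below, and aged and young libraries overlapped. The log2 difference of Slc30a9 was 0.51 ± 0.46 for aged+Ri against aged cells, 0.25 ± 0.46 for aged against young cells and 0.75 ± 0.47 for aged+Ri against young cells, with edgeR adjusted p-values of 0.836, 0.842 and 0.343. The difference of aged from young cells turned to -0.10 without young 3 and to -0.17 with young 1 as the sole young sample.

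Slc39a1 codes for ZIP1, a zinc importer of the plasma membrane (chr3:90248172-90253612, plus strand). Its level was 9.49, 10.3 and 6.58 CPM in aged+Ri 1, 2 and 3, against 15.9, 13.6 and 11.1 CPM in aged 1, 2 and 3, and 23.3, 25.9 and 34.5 CPM in young 1, 2 and 3. The 3 groups did not overlap, with aged+Ri lowest and young highest. The mean was 8.79 ± 1.95 CPM in aged+Ri cells, 13.6 ± 2.42 CPM in aged cells and 27.9 ± 5.87 CPM in young cells (SD, n = 3 each). The log2 difference of Slc39a1 was -0.63 ± 0.58 for aged+Ri against aged cells and -1.04 ± 0.58 for aged against young cells, with edgeR adjusted p-values of 0.838 and 0.380. For aged+Ri against young cells it was -1.67 ± 0.59, with an edgeR unadjusted p of 0.0138 and an adjusted p of 0.125. DESeq2 called Slc39a1 in the comparisons of aged and of aged+Ri with young cells, with adjusted p-values of 0.0445 and 0.000137.

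All 5 within-batch differences of Slc39a1 in log2(CPM + 1) were below 0. They were -0.69 and -0.66 for aged+Ri against aged libraries in batches 1 and 2, -0.88 and -1.55 for aged against young libraries in batches 2 and 3, and -1.54 for aged+Ri against young libraries in batch 2. With young 1 as the sole young sample the fitted differences were -0.71 for aged and -1.34 for aged+Ri against young cells, with edgeR adjusted p-values of 0.647 and 0.313. Of all windows of 50 bases in the transcripts of Slc39a1, 21.8% also occur in its pseudogene Slc39a1-ps, which has no row in the table, so part of its counts are uncertain.

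Slc39a10 codes for ZIP10, a plasma membrane zinc importer that B cells need in mice (chr1:46807544-46892852, minus strand). It had 10.9, 18.7 and 22.6 CPM in aged+Ri 1, 2 and 3, against 23.7, 31.1 and 18.7 CPM in aged 1, 2 and 3, and 27.2, 6.50 and 46.0 CPM in young 1, 2 and 3. The groups overlapped in all 3 comparisons, and the young libraries spanned the values of both others. The log2 difference of Slc39a10 was -0.49 ± 0.67 for aged+Ri against aged cells, -0.12 ± 0.67 for aged against young cells and -0.61 ± 0.67 for aged+Ri against young cells, with edgeR adjusted p-values of 0.917, 0.952 and 0.615. Within batches the difference of aged from young libraries in log2(CPM + 1) was 2.10 in batch 2 and -1.25 in batch 3, so its direction was not stable. With young 1 as the sole young sample the fitted differences were -0.09 for aged and -0.59 for aged+Ri against young cells.

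Slc39a14 codes for ZIP14, an importer of zinc, iron and manganese that inflammation induces in liver (chr14:70303469-70351425, minus strand). It had 129, 185 and 139 counts in aged+Ri 1, 2 and 3, against 24, 12 and 25 counts in aged 1, 2 and 3, and 45, 49 and 32 counts in young 1, 2 and 3. Scaled, this was 3.62, 3.20 and 3.93 CPM in aged+Ri libraries, against 0.328, 0.217 and 0.397 CPM in aged libraries and 0.910, 1.25 and 0.912 CPM in young libraries. The 3 groups did not overlap, with aged+Ri highest and aged lowest, and the SD within a group was at most 0.37 CPM.

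The log2 difference of Slc39a14 was 3.50 ± 1.32 for aged+Ri against aged cells, an 11.3-fold higher level, with an edgeR unadjusted p of 0.0198 and an adjusted p of 0.462. It was -1.70 ± 1.23 for aged against young cells and 1.80 ± 1.24 for aged+Ri against young cells, with edgeR adjusted p-values of 0.512 and 0.397. DESeq2 called Slc39a14 for aged+Ri against aged cells and for aged+Ri against young cells, with adjusted p-values of 2.8e-05 and 0.0481. For aged against young cells the DESeq2 adjusted p was 0.0867. The difference of aged+Ri from aged libraries in log2(CPM + 1) was 1.80 in batch 1 and 1.90 in batch 2, on a scale that understates the change of low genes. With young 1 as the sole young sample the fitted differences were -1.46 for aged and 2.03 for aged+Ri against young cells. The call for Slc39a14 depended on the tool.

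**Figure D2:**
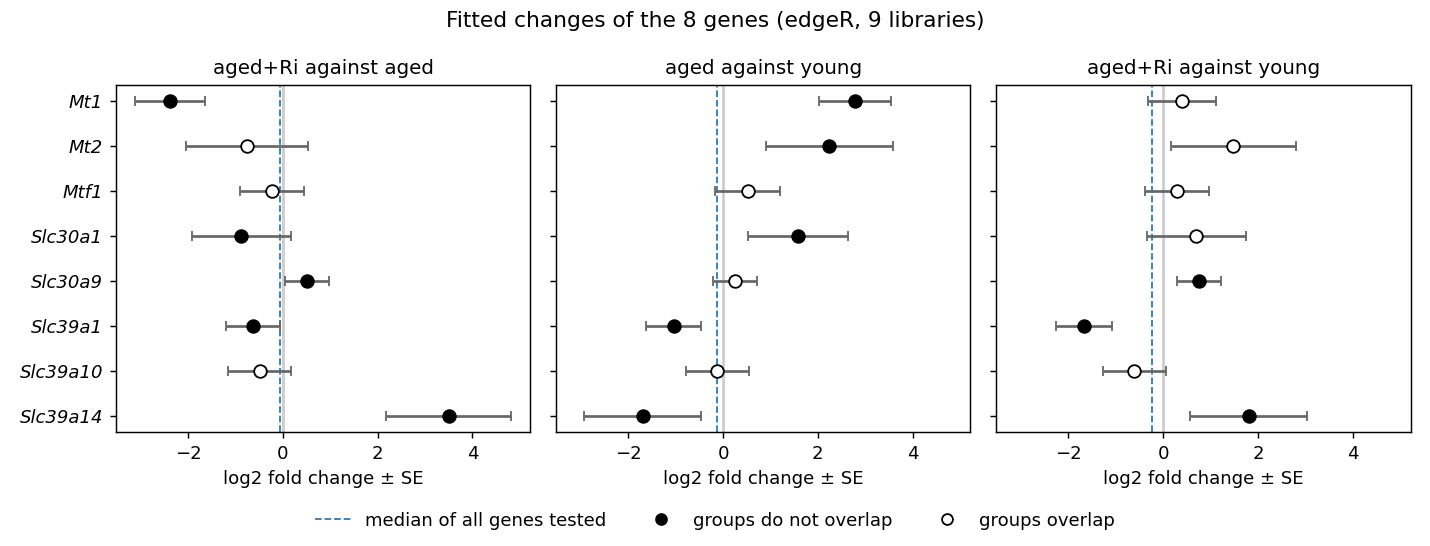
Fitted log2 fold changes (x axis, with SE bars) of the 8 genes (y axis) for aged+Ri against aged, aged against young and aged+Ri against young cells, from edgeR. The largest positive value is that of Slc39a14 for aged+Ri against aged cells (3.50 ± 1.32) and the most negative that of Mt1 in the same comparison (-2.38 ± 0.75).

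Counted over the 8 genes, edgeR called 0 in each comparison at an adjusted p under 0.05. Over all genes tested it called 0% for aged+Ri against aged cells, 0.0331% for aged against young cells and 1.45% for aged+Ri against young cells. DESeq2 called 1, 2 and 2 of the 8 genes in these comparisons, where it called 320, 744 and 1862 of all 15127 genes. Limma-voom with sample weights called 0 of the 8 in each. At an unadjusted edgeR p under 0.05, aged+Ri against aged cells gave 1 gene higher (Slc39a14) and 1 lower (Mt1), where 4.24% of all genes were higher and 4.89% lower. Aged against young cells gave 1 higher (Mt1) and 0 lower, where 6.09% of all genes were higher and 10.1% lower. Aged+Ri against young cells gave 0 higher and 1 lower (Slc39a1), where 9.06% of all genes were higher and 14.4% lower.

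Groups without overlap were more frequent than single small p-values. In aged+Ri against aged cells, Slc30a9 and Slc39a14 lay wholly above and Mt1, Slc30a1 and Slc39a1 wholly below, where 7.87% of all genes were higher and 8.66% lower in this way. In aged against young cells, Mt1, Mt2 and Slc30a1 lay wholly above and Slc39a1 and Slc39a14 wholly below, where 8.58% of all genes were higher and 16.1% lower. In aged+Ri against young cells, Slc30a9 and Slc39a14 lay wholly above and Slc39a1 wholly below, where 12.4% of all genes were higher and 19.9% lower. The median log2 difference of the 8 genes was -0.56, 0.38 and 0.55 in the 3 comparisons, in the order just given, and that of all genes tested was -0.06, -0.13 and -0.24. Mt1, Slc30a1 and Slc39a14 are thus the genes of the 8 for which aged libraries stood at one end of all 9, at the high end for the first pair and at the low end for Slc39a14.

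Compared per kilobase of exon length, Mt1 had the highest and Slc39a14 the lowest mean of the 8 in all groups. In aged+Ri cells Mt1 averaged 48.6 CPM per kb, followed by Mt2 (16.3), Slc30a9 (4.61), Slc39a1 (3.72), Slc39a10 (2.85), Mtf1 (1.57), Slc30a1 (1.06) and Slc39a14 (0.339). Neighbours in this order overlapped between libraries, except Mt2 with Slc30a9 and Slc30a1 with Slc39a14. The length used for Mt1 was 1246 bp in 1 exon block, its whole annotated span, against 588 bp in 3 blocks for Mt2. A shorter length would raise the values of Mt1 per kb, so its overlaps with neighbours depend on this length. In aged cells the order by CPM per kb was Mt1 (253.3), Mt2 (27.6), Slc39a1 (5.74), Slc39a10 (4.02), Slc30a9 (3.24), Slc30a1 (1.96), Mtf1 (1.85) and Slc39a14 (0.0298). Here Mt1 stood clear of Mt2, Mt2 of Slc39a1, Slc30a9 of Slc30a1 and Mtf1 of Slc39a14, and the other neighbours overlapped. In young cells the order by CPM per kb was Mt1 (36.9), Slc39a1 (11.8), Mt2 (5.82), Slc39a10 (4.36), Slc30a9 (2.73), Mtf1 (1.29), Slc30a1 (0.656) and Slc39a14 (0.0971), and every pair of neighbours overlapped.

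**Figure D3:**
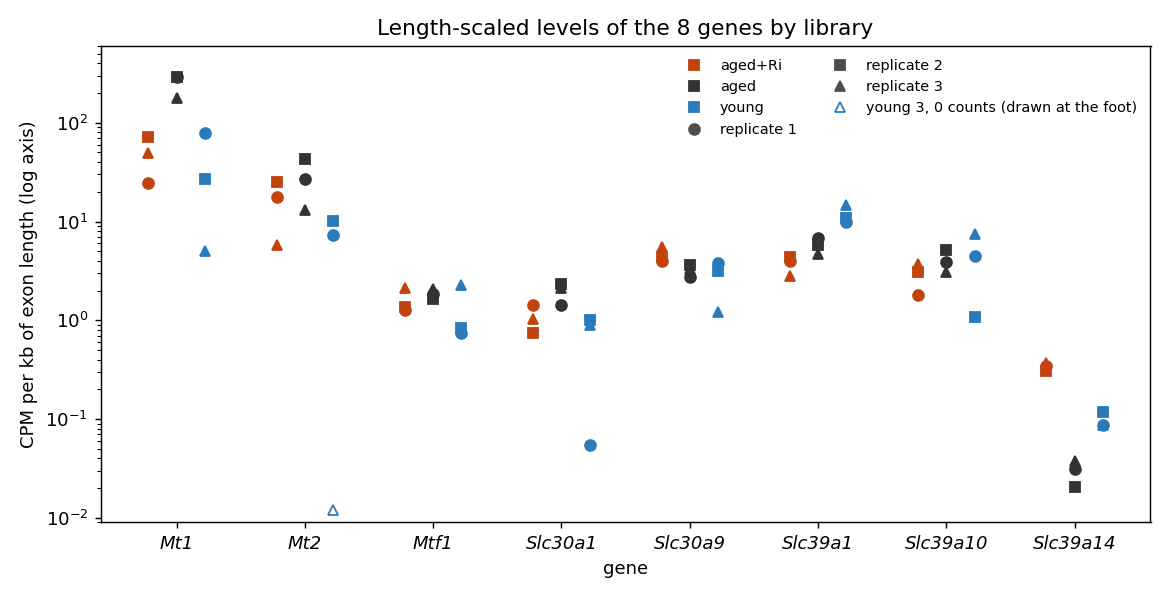
Level per kilobase of exon length (y axis, CPM per kb, log axis) of the 8 genes (x axis) in each of the 9 libraries, colours by group and symbols by replicate number; the open triangle at the foot is Mt2 in young 3, at 0 counts. Mt1 averages 253.3 CPM per kb in aged cells against 48.6 in aged+Ri and 36.9 in young cells, and Slc39a14 is the lowest gene by mean in every group.

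The genes whose profiles lay nearest to that of Mt1 were found by the root mean square distance between centred log2(CPM + 1) profiles over the 9 libraries, among 9537 named genes with a mean of at least 5 CPM. They were Dcxr and Ociad2 (both 0.58), Sult1a1 (0.71), Ccdc69 (0.72) and Fn3k (0.75). Sult1a1, a sulfotransferase of phenols, averaged 10.2 CPM in aged+Ri, 66.3 CPM in aged and 7.24 CPM in young cells. Ociad2 averaged 33.4 CPM in aged+Ri, 105.0 CPM in aged and 38.4 CPM in young cells. Mt2 was the 56th nearest of the 9537 to Mt1, at 1.04, and Slc30a1 the 3414th, at 1.74. In turn, Mt1 was the 670th nearest to Mt2 and the 8882nd nearest to Slc30a1. The nearest to Mt2 were Jade3 and Nfrkb (both 0.50), Rraga (0.52), Pdk2 (0.53) and Tango2 (0.56), and the nearest to Slc30a1 were Lat2 (0.37), Sap130 (0.38), Aldh18a1 and Vamp2 (both 0.39) and Slc50a1 (0.40). The libraries of a group share their condition, so these distances are a description of 9 profiles.

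Of the other SLC30 exporters, 4 of 8 had enough counts. For aged+Ri against aged cells, 1 had an unadjusted p under 0.05 and was higher, and the median log2 difference was 0.46. It was Slc30a7, which loads zinc into the Golgi, with 196.5, 85.9 and 148.6 CPM in aged+Ri 1, 2 and 3, against 53.1, 62.1 and 66.9 CPM in aged 1, 2 and 3. The log2 difference of Slc30a7 was 1.24 ± 0.42, with an edgeR unadjusted p of 0.0106 and an adjusted p of 0.419, and for aged+Ri against young cells the edgeR adjusted p was 0.0679. Slc30a6, also of the Golgi, averaged 38.3 ± 12.6 CPM in aged+Ri, 33.5 ± 24.8 CPM in aged and 4.95 ± 4.56 CPM in young cells (SD, n = 3 each). Its edgeR adjusted p was 0.198 for aged and 0.0839 for aged+Ri against young cells, and these exporters had a median log2 difference of -0.21 and 0.73 in those comparisons.

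Of the other SLC39 importers, 10 of 11 had enough counts, and the median log2 difference was -0.02 for aged+Ri against aged, -0.57 for aged against young and -0.70 for aged+Ri against young cells. An unadjusted p under 0.05 was reached by 1 importer in aged+Ri against aged cells, 1 in aged against young cells and 0 in aged+Ri against young cells, all lower. Slc39a11 averaged 2.84 ± 0.43 CPM in aged+Ri and 13.0 ± 10.2 CPM in aged cells, with an edgeR adjusted p of 0.544. Its aged libraries 1, 2 and 3 had 19.3, 1.21 and 18.4 CPM, so aged 2 lay below every aged+Ri library. Slc39a8, which codes for ZIP8, an importer of zinc and manganese, averaged 1.74 ± 2.32 CPM in aged and 15.4 ± 4.02 CPM in young cells, with an edgeR adjusted p of 0.282.

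Metallothioneins also bind copper. Of 11 copper handling genes, 10 had enough counts, with median log2 differences of -0.30 for aged+Ri against aged, 0.68 for aged against young and 0.31 for aged+Ri against young cells. Slc31a2, a copper transporter of endosomes, had 6.12, 13.2 and 16.0 CPM in aged+Ri 1, 2 and 3, against 0.404, 0.791 and 0.314 CPM in young 1, 2 and 3. It was higher in aged+Ri than in young cells, with a log2 difference of 4.54 ± 0.98 and an edgeR adjusted p of 0.0406, the 1 copper gene called. With young 1 as the sole young sample the log2 difference of Slc31a2 was 4.91, with an edgeR adjusted p of 0.0432. The call was lost on leaving out any aged or aged+Ri library or young 1 and kept without young 2 or young 3, with edgeR adjusted p-values of 0.0411 to 0.154 and log2 differences of 4.17 to 5.09. It was also lost with the replicate block and with batch as covariate, at edgeR adjusted p-values of 0.0659 and 0.0858. With only the 2 groups compared the call was lost too, at an edgeR adjusted p of 0.0899. In aged cells Slc31a2 averaged 10.4 ± 2.87 CPM, with a log2 difference of 4.37 ± 0.97 and an edgeR adjusted p of 0.163 against young cells. Aged+Ri and aged cells were alike in Slc31a2, with a log2 difference of 0.18 ± 0.84 and an edgeR adjusted p of 0.986. DESeq2 called Slc31a2 for aged and for aged+Ri against young cells, with adjusted p-values of 1.4e-09 and 1.5e-10. For aged+Ri against aged cells its DESeq2 adjusted p was 0.963. Slc31a1, the copper importer of the plasma membrane, averaged 147.6 ± 75.9 CPM in aged+Ri, 58.0 ± 7.04 CPM in aged and 15.4 ± 23.0 CPM in young cells (SD, n = 3 each), with an edgeR adjusted p of 0.108 for aged+Ri against young cells. Sco1, a copper chaperone of mitochondria, averaged 10.5 ± 3.89 CPM in aged and 0.308 ± 0.248 CPM in young cells, with an edgeR adjusted p of 0.173.

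The 8 other reported MTF1 targets had medians below 0 in all comparisons, as all genes tested did. The median log2 difference of these targets was -0.11 for aged+Ri against aged, -0.50 for aged against young and -0.66 for aged+Ri against young cells, with 4, 2 and 3 of 8 above 0. For all genes tested it was -0.06, -0.13 and -0.24, with 7137, 6860 and 6444 of 15127 above 0. Gclc, a subunit of the enzyme that limits glutathione synthesis, averaged 73.8 ± 8.13 CPM in aged+Ri, 37.7 ± 6.77 CPM in aged and 92.8 ± 35.0 CPM in young cells (SD, n = 3 each). It was higher in aged+Ri than in aged cells by 0.97 ± 0.37 on the log2 scale, with an edgeR adjusted p of 0.465, and its log2 difference for aged against young cells was -1.30 ± 0.38, with an edgeR adjusted p of 0.191. Slc40a1, which exports iron, averaged 137.7 ± 35.0 CPM in aged+Ri and 60.1 ± 44.1 CPM in aged cells, with an edgeR adjusted p of 0.560.

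Oxidants and electrophiles induce metallothioneins as well as the targets of NRF2. All 8 genes on the list of NRF2 targets had higher fitted values in aged+Ri than in aged and than in young cells, opposite in sign to Mt1 against aged cells. Gsr was level between aged+Ri and aged cells (91.9 and 91.5 CPM). The list did not hold Gclc, whose mean was lower in aged+Ri than in young cells (73.8 against 92.8 CPM). The median log2 difference of the 8 listed genes was 1.56 for aged+Ri against aged, 0.12 for aged against young and 1.50 for aged+Ri against young cells. An unadjusted edgeR p under 0.05 was reached by 5, 0 and 5 of them, all higher, where 4.24%, 6.09% and 9.06% of all genes were higher. Nqo1, a quinone reductase, had 610.8, 840.7 and 939.0 CPM in aged+Ri 1, 2 and 3, against 145.7, 72.9 and 80.4 CPM in aged 1, 2 and 3, and 106.6, 44.5 and 60.6 CPM in young 1, 2 and 3. It rose in aged+Ri over young cells, with a log2 difference of 3.50 ± 0.41 and an edgeR adjusted p of 0.00304. With young 1 as the sole young sample the log2 difference of Nqo1 was 2.96, with an edgeR adjusted p of 0.00560. Against aged cells the log2 difference of Nqo1 was 3.00 ± 0.40, with an edgeR adjusted p of 0.0567, which was 0.0232 to 0.137 on leaving out 1 library at a time. DESeq2 and limma-voom called Nqo1 there, with adjusted p-values of 3.6e-08 and 0.00356. The edgeR adjusted p was 0.0175 with the newer method, 0.00309 with no filter and 0.0318 with only the 2 groups compared. It was 0.0154 with the replicate block and 0.0495 with batch as covariate. It stayed above the threshold with the size factors of DESeq2 (0.0558) and the stricter filter (0.0598). Hmox1, which degrades haem, averaged 838.2 ± 209 CPM in aged+Ri, 116.6 ± 118 CPM in aged and 93.1 ± 93.8 CPM in young cells (SD, n = 3 each), with an edgeR adjusted p of 0.101 for aged+Ri against young cells.

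Of the 8 genes of the glucocorticoid response, edgeR called 0 in any comparison, and 0, 0 and 1 had an unadjusted p under 0.05. Their median log2 difference was -0.41 for aged+Ri against aged, 0.21 for aged against young and -0.31 for aged+Ri against young cells, with 4, 5 and 4 of 8 above 0. Klf9, a zinc-finger transcription factor, averaged 172.3 ± 28.1 CPM in aged+Ri and 108.9 ± 31.9 CPM in aged cells (SD, n = 3 each), with an edgeR adjusted p of 0.593. Fkbp5, a co-chaperone of the glucocorticoid receptor, averaged 10.6 ± 2.66 CPM in aged+Ri and 20.96 ± 7.41 CPM in aged cells, with an edgeR adjusted p of 0.685. Per1, a gene of the circadian clock, averaged 11.1 ± 2.65 CPM in aged+Ri and 21.6 ± 8.40 CPM in aged cells, with an edgeR adjusted p of 0.685. Tsc22d3, known as GILZ, averaged 303.9 ± 83.8 CPM in aged+Ri and 168.1 ± 35.1 CPM in young cells, with an edgeR adjusted p of 0.177. The genes of this list had no common direction.

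**Figure D4:**
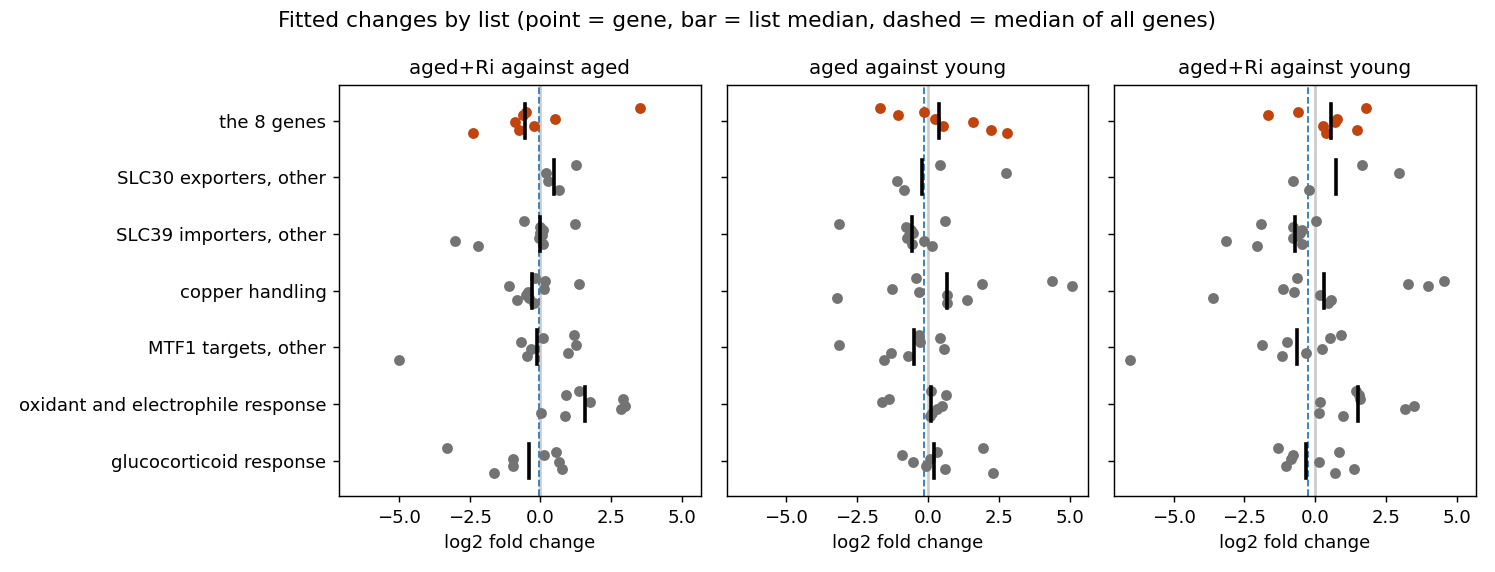
Fitted log2 fold changes (x axis) of the 8 genes and of the pathway lists (y axis) in the 3 comparisons; each point is a gene, the bar is the median of the list and the dashed line the median of all genes tested. The NRF2 targets (oxidant and electrophile response) lie above 0 in both comparisons that involve aged+Ri cells, with medians of 1.56 and 1.50, while the 8 genes spread to both sides.

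Markers of other blood cells also stood at different levels in the groups. The summed level of 10 myeloid genes, all detected, was 72.3 to 124.2 CPM in aged+Ri, 447.0 to 10200.2 CPM in aged and 1053 to 3551 CPM in young libraries. The 6 megakaryocyte genes summed to 24.2 to 189.3 CPM in aged+Ri, with Gp9 at 0, 243.1 to 540.8 CPM in aged and 109.7 to 284.2 CPM in young libraries. The 6 mast cell and basophil genes summed to 0 to 5.34 CPM in aged+Ri, with Prss34 and Gzmb at 0, 23.1 to 274.2 CPM in aged and 2.83 to 102.0 CPM in young libraries. The 7 T and NK cell genes summed to 5.92 to 58.0 CPM in aged+Ri, 55.2 to 301.1 CPM in aged and 87.1 to 548.9 CPM in young libraries. The 6 B cell genes summed to 65.8 to 135.7 CPM in aged+Ri, 58.9 to 540.7 CPM in aged and 182.3 to 13490.7 CPM in young libraries. The summed level of 6 erythroid genes went the other way. It was 437.5 to 916.9 CPM in aged+Ri, where Car1 was at 0, 12.1 to 47.7 CPM in aged and 22.1 to 370.5 CPM in young libraries. Most of the aged+Ri sum was Hba-a1, with a mean of 649.3 CPM there, 14.9 CPM in aged and 92.4 CPM in young cells. Klf1 averaged 2.52, 5.88 and 9.22 CPM in those groups. Of the 5 erythroid genes tested, 3 had higher and 2 lower fitted values in aged+Ri than in aged cells. Against young cells, 1 was higher and 4 were lower. The 8 macrophage and dendritic genes summed to 126.3 to 205.8 CPM in aged+Ri, with C1qa at 0, 89.9 to 922.0 CPM in aged, with C1qa and C1qc at 0, and 52.4 to 143.3 CPM in young libraries. The 7 stromal and endothelial genes summed to 20.2 to 70.3 CPM in aged+Ri, 57.0 to 100.0 CPM in aged and 62.9 to 88.1 CPM in young libraries. Mitochondrially encoded mRNA took 1.57% to 2.56% of counts in aged+Ri, 2.57% to 3.54% in aged and 4.14% to 4.68% in young libraries. The part of these differences in the values of the 8 genes was not tested.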

How the data were processed

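Full-length cDNA (SMART-Seq v4) was turned into libraries with Nextera XT, per the labels' protocols. Trimming with cutadapt 1.18, alignment with STAR 2.7.0, SAMtools 1.14, featureCounts (no version given), R 4.2.0 and the GRCm38/mm10 build are named in the submitters' processing notes. The table of estimated counts was deposited by the authors, unnormalized, and 71.6% to 80.9% of its values per library are whole to within 0.005. Counts were rounded. Genes were filtered with filterByExpr, scaled by TMM and tested with edgeR 4.0.16 (quasi-likelihood, all 9 libraries in 1 fit, 6 residual degrees of freedom, Benjamini-Hochberg over 15127 genes), with limma 3.58.1 and DESeq2 1.42.0 as alternatives, in R 4.3.3. The SE is the log2 difference divided by the square root of F. Scripts were tested on simulated data. The floor of 3 counts equals 0.0410 to 0.0855 CPM. No libraries of the same group were duplicates, and pairs across groups were not checked for this. Genes named were the 8, and of each pathway list those called, else up to 4 with the smallest unadjusted p and at least 5 CPM. Members, lists and tests were chosen with earlier results of these data known, and Mt3 and Mt4, below 5 CPM, were named after their values were seen. One gene of the erythroid marker list is not reported here.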

Additional observations from a re-analysis of the deposited data

How the results depend on the processing

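Over 20 alternative settings, 452 of 477 values of the 8 genes kept their direction and side of the threshold, 12 newly passed it and 13, never called, turned direction. All numbers of called genes below run aged+Ri against aged, aged against young, aged+Ri against young, and were 0, 5 and 219 in the results above. They were 320, 744 and 1862 with DESeq2 (of the 8 genes 1, 2 and 2), 429, 1867 and 2943 with DESeq2 unfiltered, added after the data were seen (1, 3 and 2), 55, 18 and 626 with limma-voom, 5, 21 and 463 with the newer edgeR method, 11, 20 and 291 with no filter, 2, 1 and 57 with only the 2 groups compared, 5, 6 and 190 with batch as covariate, and 40, 358 and 735 with young 1 as the sole young sample (1, 0 and 0). The replicate block gave 2, 6 and 226. Same-numbered libraries deviated together by correlations of -0.09 to 0.11, and differently numbered ones by -0.14 to 0.15. The numbers thus showed no pairing, though such correlations cannot exclude one. Leaving out 1 library gave 0 to 6 (highest without aged 1), 2 (without aged 3) to 80 (without young 3) and 18 (without aged+Ri 3) to 532 (without young 3).

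For aged against young cells, Slc39a10 turned to 0.27 with limma-voom, 0.062 with no filter, 0.074 with the replicate block and 0.33 with batch, and spanned -0.47 to 0.55 on leaving out 1 library. Slc30a9 turned to -0.17 with young 1 alone and spanned -0.10 to 0.48. For aged+Ri against young cells, Mt1 turned to -0.028 with batch and -0.64 with young 1 alone and spanned -0.11 to 1.48, and Slc39a10 spanned -0.99 to 0.057. The causes were not tested. The median of all genes moved to -0.57 for aged and -0.86 for aged+Ri against young cells with no filter. A stricter filter left Slc39a14 without a value. Slc39a14 had 12 to 185 counts a library.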
